A study of Mus with 18 samples.

Results

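The immediate early transcription factor genes Egr1, Egr2, Egr3 and Egr4 and the co-repressor gene Nab2 were examined in RNA of mouse lens epithelial cells (LECs). The 5 genes were chosen by their Ensembl identifiers, and each had its row in every library, 5 of the 55416 gene IDs counted. They are Egr1 (ENSMUSG00000038418), Egr2 (ENSMUSG00000037868), Egr3 (ENSMUSG00000033730), Egr4 (ENSMUSG00000071341) and Nab2 (ENSMUSG00000025402). RNA was sequenced from 18 libraries in 6 groups of 3, made from C57BL/6 lens capsules of mice of 3 to 5 months, with their attached cells. The study asked how LECs respond when the fiber cell mass is taken out, as in cataract surgery, and what Egr1 and FosB contribute to that response. Capsules were taken at 0 h or at 6 h post cataract surgery (PCS). Each library pooled 5 capsules of 1 time, and the second eye of each mouse was operated 6 h after the other, so the 0 h capsule came from an animal whose other eye had been injured earlier. The WT groups carried no targeted allele. The Egr1KO groups came from animals homozygous for a systemic Egr1 knockout, in which a neo cassette placed in exon 2 truncates the protein. The methods give this line's background as mixed B6N and 129, while the labels give C57BL/6 for all libraries. The FosBcKO groups carried floxed Fosb alleles with exons 2 and 3 removed by MLR10 cre, which a modified alpha-A crystallin promoter drives in the lens, so other cells in the capsule keep an intact Fosb gene.

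The EGR proteins are zinc finger transcription factors that bind a GC-rich element in the promoters of their target genes. Their genes are immediate early genes: growth factors, stress and wounding switch them on within minutes through ERK kinases, ELK factors and SRF, without new protein synthesis. NAB2 and its relative NAB1 bind EGR1, EGR2 and EGR3 and repress the genes they activate. Nab2 is itself a target of EGR factors in other cells, which makes a negative feedback loop. In the eye, Egr1 is known for its induction by injury and stress and for a role in refractive development.

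The libraries held 9609295 to 13871592 counted read pairs each, and levels are given as CPM, a gene's counts per 1000000 gene counts of its library. A gene was called differentially expressed (DEG) when its false discovery rate (FDR, Benjamini-Hochberg over all genes tested) did not exceed 0.05 and it differed by over 2-fold. On the first principal component, the Egr1KO replicate 1 library at 6 h stood apart from the other 6 h libraries, toward the 0 h libraries, at -4.70. The FosBcKO replicate 3 library at 6 h came next, at 23.6, with the other 6 h libraries at 54.1 to 115.6. The rise of Egr1 in Egr1KO and its difference from WT at 6 h are given with and without the Egr1KO replicate 1 library. So are the differences of Nab2 in Egr1KO, between times and between genotypes. Interactions with Egr1KO, gene lists and shares over all genes are given only with that library included. The summed level of 6 lens epithelial markers, among them Pax6 and Foxe3, was 1910 to 2224 CPM at 0 h and 594 to 1719 CPM at 6 h. At 6 h it was highest in the Egr1KO replicate 1 and FosBcKO replicate 3 libraries, at 1719 and 1676 CPM. Markers of other cells were counted in all 6 groups: 10 of leukocytes, 4 of pigmented cells, 4 of vessel cells and 2 of corneal epithelium, and no marker was at 0 in all libraries of a group. Pigmented cell markers summed to 14.0 to 94.4 CPM at 0 h and 35.5 to 355 CPM at 6 h. In such bulk RNA, fewer cells of a type and less RNA per cell cannot be told apart.

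Egr1 reads were not lost in the libraries labelled Egr1KO. At 0 h, Egr1 was at 164.7, 66.3 and 141.5 CPM in the WT libraries and at 284.7, 106.5 and 170.9 CPM in the Egr1KO libraries. At 6 h, it was at 2046, 1627 and 1438 CPM in WT and at 4463, 2083 and 3472 CPM in Egr1KO. The Egr1KO libraries overlapped WT at 0 h and were all above WT at 6 h, where Egr1 made up 0.208% to 0.446% of their counts. An inserted cassette leaves the sequence around it in place, and counts summed over the whole gene do not separate intact from truncated transcripts. The Egr1 count therefore does not check this genotype label. The Fosb count does not check the FosBcKO label either. Fosb was at 4.55 to 18.1 CPM at 0 h and at 1430 to 1778 CPM at 6 h in FosBcKO, against 7.20 to 26.3 CPM and 767 to 1539 CPM in WT. The study checked both mouse lines by other means. It reports that immunofluorescence found no Egr1 protein in Egr1KO. For FosBcKO it reports loss of the floxed region by PCR of lens DNA and loss of FosB protein by immunofluorescence.

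**Figure D1:**
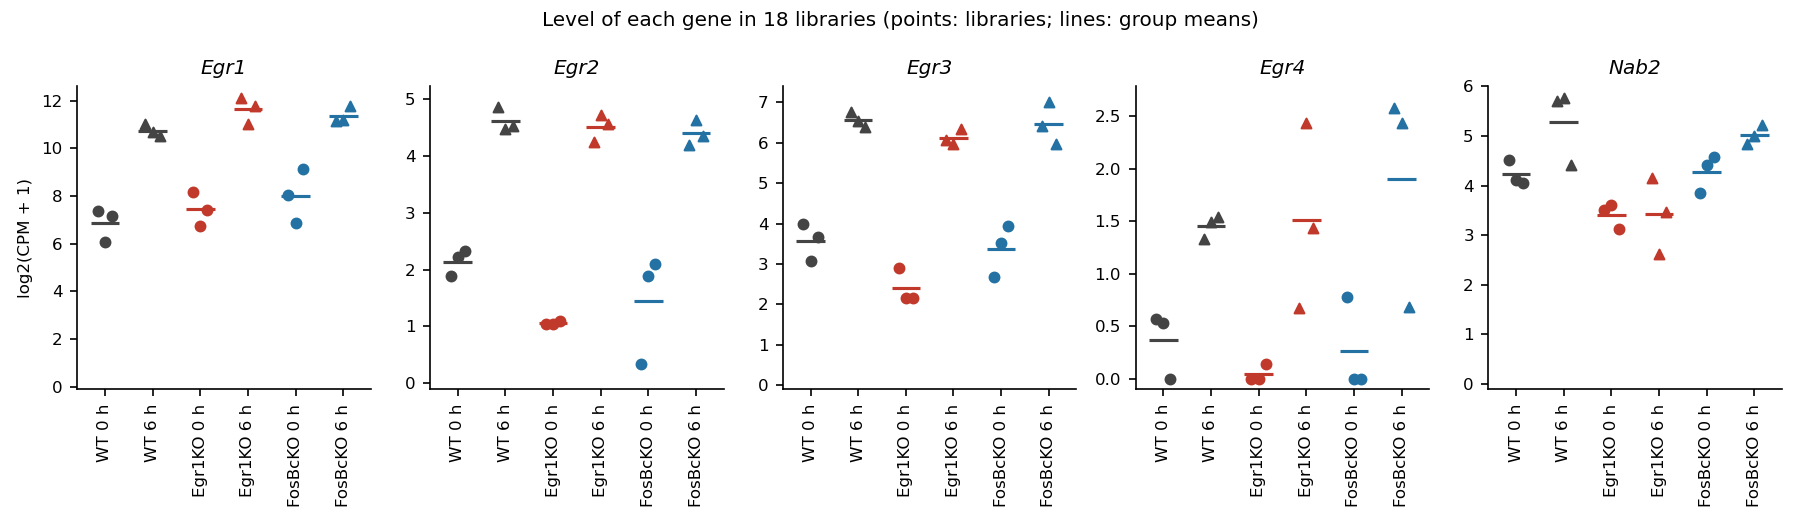
Level of Egr1, Egr2, Egr3, Egr4 and Nab2 in each library, as log2(CPM + 1), by group, with circles for 0 h, triangles for 6 h and a line at the mean of the 3 libraries. Egr1, Egr2 and Egr3 at 6 h lie above 0 h in each genotype, while Nab2 in Egr1KO stays between 5.19 and 16.8 CPM at both times.

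All genotypes upregulated Egr1, Egr2 and Egr3 by 6 h PCS, and the libraries of the 2 times did not overlap for any of these genes. They were 3 of the 5 genes tested in WT, where 13.5% of the 15440 genes tested were DEGs with a higher level at 6 h, and 3 of the 4 tested in Egr1KO and in FosBcKO, where 9.28% and 11.2% were. Libraries of 6 h lay above those of 0 h for 28.2%, 18.1% and 22.8% of all genes tested in these genotypes. Egr1 rose 12.9-fold in WT (log2 fold change 3.69, SE 0.38, edgeR quasi-likelihood F-test, FDR 0.00127), from a mean of 124 ± 51.4 CPM to 1704 ± 311 CPM (SD, n = 3). It rose 18.7-fold in Egr1KO (log2 fold change 4.23, SE 0.47, edgeR quasi-likelihood F-test, FDR 0.00260). Without the Egr1KO replicate 1 library at 6 h the log2 fold change was 3.91 (SE 0.51, edgeR quasi-likelihood F-test, FDR 0.00451). In FosBcKO, Egr1 was at 259.9, 114.4 and 565.3 CPM at 0 h and at 2225, 2292 and 3468 CPM at 6 h. The FosBcKO libraries at 0 h spread more widely than those of WT, and Egr1 rose 8.35-fold (log2 fold change 3.06, SE 0.60, edgeR quasi-likelihood F-test, FDR 0.0175). This FDR was 0.101 with no filter on low counts and 0.114 without the FosBcKO replicate 1 library at 6 h. By the exact test it was 1.29e-05 and by DESeq2 0.000151.

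Egr2, known for its part in myelination and in lymphocyte restraint, was scarcer in counts. It was at 2.68, 3.64 and 3.99 CPM in WT at 0 h and at 28.1, 21.1 and 21.9 CPM at 6 h, a 6.39-fold rise (log2 fold change 2.68, SE 0.26, edgeR quasi-likelihood F-test, FDR 0.00121). In Egr1KO it was at 1.06, 1.06 and 1.14 CPM at 0 h and at 17.9, 25.2 and 22.5 CPM at 6 h, a 20.7-fold rise (log2 fold change 4.37, SE 0.27, edgeR quasi-likelihood F-test, FDR 0.000282). In FosBcKO it was at 0.268, 2.70 and 3.30 CPM at 0 h, where the lowest library held 3 counts, and at 17.2, 23.9 and 19.4 CPM at 6 h. This was a 9.75-fold rise (log2 fold change 3.28, SE 0.63, edgeR quasi-likelihood F-test, FDR 0.0124). At 6 h the ranges of the genotypes overlapped, while at 0 h every Egr1KO library lay below every WT library. In the RefSeq annotation an RNA gene named Gm32255 overlaps Egr2, and the strand setting of the counting was not stated, so its reads may not be separated from those of Egr2.

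Egr3, which is induced with Egr1 in neurons and in muscle spindles, had its fold rises in the same order, smallest in WT and largest in Egr1KO. It was at 14.8, 7.38 and 11.8 CPM in WT at 0 h and at 107.8, 91.7 and 83.7 CPM at 6 h, a 7.79-fold rise (log2 fold change 2.96, SE 0.26, edgeR quasi-likelihood F-test, FDR 0.00106). In Egr1KO it was at 6.45, 3.46 and 3.43 CPM at 0 h and at 66.3, 61.5 and 80.1 CPM at 6 h, a 16.1-fold rise (log2 fold change 4.01, SE 0.29, edgeR quasi-likelihood F-test, FDR 0.000510). In FosBcKO it was at 5.35, 10.4 and 14.4 CPM at 0 h and at 84.4, 128.7 and 62.1 CPM at 6 h, a 9.21-fold rise (log2 fold change 3.20, SE 0.46, edgeR quasi-likelihood F-test, FDR 0.00666). Every Egr1KO library lay below every WT library at the same time, at 0 h and at 6 h alike.

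Egr4, the member of the family that does not bind NAB proteins, was near the limit of detection. It had 5, 5 and 0 counts in the WT libraries at 0 h and 16, 18 and 20 at 6 h, or 1.51 to 1.91 CPM at 6 h. In Egr1KO it had 0, 0 and 1 counts at 0 h and 6, 61 and 18 at 6 h. In FosBcKO it had 8, 0 and 0 counts at 0 h and 58, 51 and 7 at 6 h, where the lowest library at 6 h lay within the 0 h range. A count of 0 allows a level of up to 0.292 CPM in that WT library, 0.245 and 0.288 CPM in those of Egr1KO and 0.311 and 0.291 CPM in those of FosBcKO (3 counts, counting error only). The WT libraries of the 2 times did not overlap, yet Egr4 was no DEG (log2 fold change 2.33, SE 0.86, edgeR quasi-likelihood F-test, FDR 0.0780). By the exact test its FDR was 0.00703 and by DESeq2 0.0419. In both knockouts Egr4 did not pass the filter on low counts and was not tested on the 6 libraries of the genotype. It was tested under 6 other settings in each, and was called higher at 6 h under 3 of them in Egr1KO and 4 in FosBcKO (edgeR quasi-likelihood F-test, FDR 0.00119 to 0.0768 and 0.000500 to 0.142). With no filter on low counts and in a single fit of all 18 libraries it was called in both knockouts (edgeR quasi-likelihood F-test, FDR 0.00119 and 0.0116 in Egr1KO, 0.000500 and 0.0417 in FosBcKO). The other calls came without the lowest 6 h library (Egr1KO replicate 1 or FosBcKO replicate 3) or the highest 0 h library (FosBcKO replicate 1). Where a filter was used, Egr4 passed it through 6 h libraries alone, so these calls are no separate support for a rise. Pooled over the 3 libraries of a time, the 6 h level was 5.57 times the 0 h level in WT (54 against 10 counts, 95% interval 2.81 to 12.3). The ratio was 79.3 in Egr1KO (85 against 1 count, interval 13.9 to 3169) and 13.0 in FosBcKO (116 against 8 counts, interval 6.37 to 30.7), where the intervals cover counting error only. An exact two-sided permutation test of log2(CPM + 1) over all 18 libraries, permuted within genotype, gave p = 0.0005 for Egr4.

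The same permutation test gave p = 0.00025, the smallest it can give, for each of Egr1, Egr2 and Egr3, which were higher in every 6 h library than in every 0 h library of the same genotype. With 3 libraries against 3, a permutation within 1 genotype cannot go below 0.1. The tests by time, that of Egr4 included, take the libraries of a genotype as exchangeable. They ignore any pairing of same-numbered libraries of 0 h and 6 h, and arrangements that keep such pairs would be fewer and the smallest p larger.

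**Figure D2:**
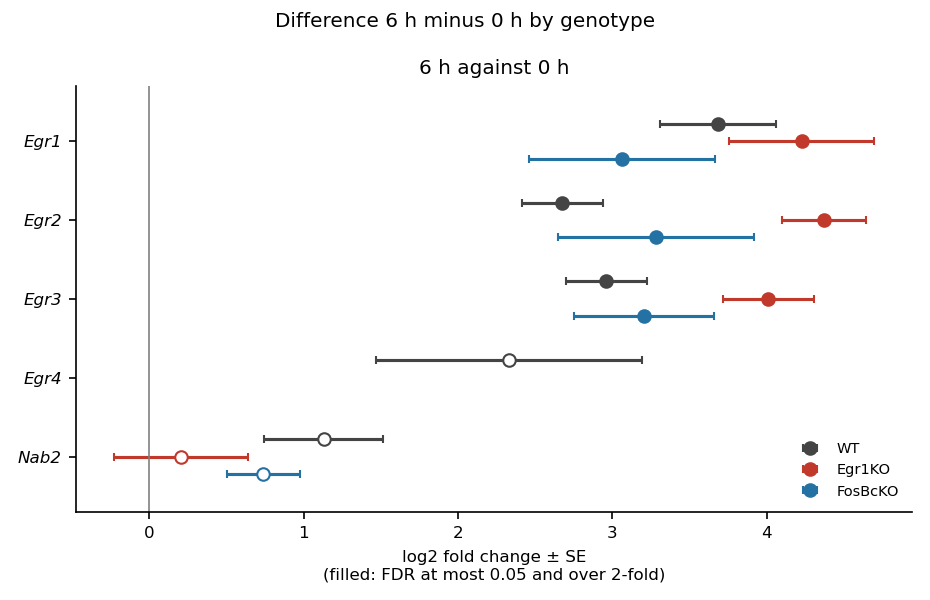
Difference between 6 h and 0 h for each gene and genotype, as log2 fold change with its SE from the edgeR quasi-likelihood fit, with filled circles for DEGs. The 9 values of Egr1, Egr2 and Egr3 lie between 2.68 and 4.37 and are filled, Nab2 lies between 0.21 and 1.13, and Egr4 was tested in WT alone.

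Whether the rise differed between genotypes was tested as an interaction over all 18 libraries. None of the 5 genes was called for Egr1KO against WT by the edgeR quasi-likelihood F-test or by DESeq2, and 1 of 5 had an unadjusted p under 0.05. That gene was Egr2, whose rise was larger by 1.67 on the log2 scale in Egr1KO (SE 0.64, edgeR quasi-likelihood F-test, FDR 0.719). The differences were 1.03 (SE 0.53) for Egr3, 0.52 (SE 0.74) for Egr1, 3.38 (SE 1.94) for Egr4 and -0.95 (SE 0.58) for Nab2. For FosBcKO against WT none was called and 0 of 5 had an unadjusted p under 0.05, with values from -0.68 (SE 0.74, Egr1) to 1.32 (SE 1.65, Egr4). Over all 17469 genes tested the share called was 0 in both interactions, and 6.53% and 6.70% had an unadjusted p under 0.05.

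Whether Egr2, Egr3 or Egr4 stood higher in Egr1KO, as a compensating family member would, was examined at each time. None was called higher or lower where tested, and Egr4 did not pass the filter on low counts at 0 h and was not tested there. At 0 h Egr2 and Egr3 were lower than in WT in every Egr1KO library, as 9.32% of all genes tested were. The difference was -1.63 on the log2 scale for Egr2 (SE 0.51, edgeR exact test, p = 0.00265, FDR 0.202) and -1.31 for Egr3 (SE 0.35, edgeR exact test, p = 0.00133, FDR 0.132). Without the WT replicate 2 library at 0 h, the WT library with least Egr3, the value of Egr3 was -1.53 and it was called (edgeR exact test, FDR 0.0167). At 6 h, where 13.8% of all genes lay lower in every Egr1KO library, the difference was 0.09 for Egr2 (95% interval -0.35 to 0.53), -0.23 for Egr3 (interval -0.65 to 0.19) and 0.54 for Egr4 (interval -0.84 to 1.91, edgeR exact test, FDR 0.974, 0.874 and 0.913). The summed level of Egr2, Egr3 and Egr4 was 11.5 to 17.998 CPM in WT and 4.51 to 7.51 CPM in Egr1KO at 0 h. At 6 h it was 107.5 to 137.4 CPM in WT and 84.8 to 104.3 CPM in Egr1KO, so the Egr1KO libraries lay below the WT libraries at both times. Egr3 made up most of the sum, which is therefore no separate result on Egr2 or Egr4. At 6 h the mean of Egr3 was 94.4 of 119.9 CPM in WT and 69.3 of 93.4 CPM in Egr1KO. In FosBcKO the sum was 6.34 to 17.7 CPM at 0 h and 82.1 to 156.9 CPM at 6 h, overlapping both other genotypes at each time. In FosBcKO against WT at 6 h, Egr4 was called higher without the FosBcKO replicate 3 library, the lowest of its group (1.55, edgeR exact test, FDR 0.0362). Of the counts assigned to the 4 Egr genes, which are not corrected for gene length, Egr1 took 85.3% to 90.1% at 0 h and 93.0% to 93.7% at 6 h in WT. In the Egr1KO libraries its share was 95.9% to 97.4% and 95.8% to 98.1%.

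Egr1 itself differed from WT at 6 h by 1.20 on the log2 scale in Egr1KO (SE 0.39, edgeR exact test, p = 0.00167, FDR 0.132) and by 0.76 in FosBcKO (SE 0.33, edgeR exact test, p = 0.0144, FDR 0.144). The comparisons share the WT libraries. In both, the 3 knockout libraries lay above the 3 WT libraries, as 3.17% and 9.99% of all genes tested did. Without the Egr1KO replicate 2 library, the lowest of its group, the difference of Egr1KO was 1.48 and was called (edgeR exact test, FDR 0.00103). Without the Egr1KO replicate 1 library that stood apart, which had the most Egr1, it was 0.91 (SE 0.41, edgeR exact test, FDR 0.299). The difference of FosBcKO was 0.53 without the FosBcKO replicate 3 library, which had the most Egr1 of its group. At 6 h the summed level of the 10 leukocyte markers was likewise lowest in WT, but highest in FosBcKO, at 22.6 to 42.1 CPM in WT, 45.0 to 70.0 CPM in Egr1KO and 75.9 to 84.1 CPM in FosBcKO, and its part in the Egr1 level was not tested. At 0 h it was 1.60 to 39.5, 25.6 to 32.8 and 32.7 to 40.2 CPM in these genotypes, and Egr1 overlapped between them.

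In the order of group means, Egr1 was highest in Egr1KO at 6 h (3339 CPM), followed by FosBcKO (2662 CPM) and WT (1704 CPM) at 6 h, and only the libraries of the knockouts overlapped. The 0 h means were 313 CPM in FosBcKO, 187 CPM in Egr1KO and 124 CPM in WT, with overlap between neighbours. For Egr2 and Egr3, neighbours in the order overlapped within each time, with Egr1KO lowest at 0 h for both, at means of 1.09 and 4.45 CPM.

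Nab2, the co-repressor of the EGR proteins, stood apart from the Egr genes in its response. It was at 22.02, 16.2 and 15.5 CPM in WT at 0 h and at 51.0, 53.0 and 20.2 CPM at 6 h. The WT replicate 3 library at 6 h lay within the 0 h range, while the other WT libraries at 6 h lay well above it. The difference of 1.13 on the log2 scale (SE 0.39, edgeR quasi-likelihood F-test, FDR 0.0643) was not called. With a replicate block, which the replicate numbers of WT allow, the difference was 1.01 and was called (edgeR quasi-likelihood F-test, FDR 0.0213). It was 1.49 without the WT replicate 3 library at 6 h (edgeR quasi-likelihood F-test, FDR 0.000877), and by the exact test and DESeq2 its FDR was 0.0264 and 0.0183.

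In FosBcKO, Nab2 was at 13.4, 20.2 and 22.9 CPM at 0 h and at 27.4, 30.8 and 36.2 CPM at 6 h. The times did not overlap, and the difference of 0.74 (SE 0.24, edgeR quasi-likelihood F-test, FDR 0.0485) was within 2-fold, so Nab2 was no DEG. In Egr1KO it was at 10.4, 11.2 and 7.70 CPM at 0 h and at 16.8, 5.19 and 10.1 CPM at 6 h, and the times overlapped. The difference there was 0.21 (SE 0.43, 95% interval -0.64 to 1.051, edgeR quasi-likelihood F-test, FDR 0.753). The highest value at 6 h was that of the replicate 1 library that stood apart, and without it the difference was -0.33 (SE 0.38, edgeR quasi-likelihood F-test, FDR 0.522). The permutation test over all genotypes gave a mean difference of 0.60 in log2(CPM + 1) and p = 0.0355 (exact, two-sided, permuted within genotype). That p was between 0.0508 and 0.0895 in 8 of the runs that left out a single library.

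Between genotypes, Nab2 was lower in every Egr1KO library than in any WT or FosBcKO library of the same time. Against FosBcKO, 8.77% of all genes at 0 h and 12.2% at 6 h lay lower in that way. Against WT the difference was -0.85 at 0 h (SE 0.23, edgeR exact test, p = 0.00322, FDR 0.222) and -1.74 at 6 h (SE 0.53, edgeR exact test, p = 0.00184, FDR 0.137), which are 1.80-fold and 3.34-fold lower fitted levels. Against FosBcKO it was -0.93 at 0 h (SE 0.25, edgeR exact test, p = 0.000795, FDR 0.0529) and -1.44 at 6 h (SE 0.42, edgeR exact test, p = 0.00161, FDR 0.0571). None of these passed the FDR limit. The contrasts with WT and with FosBcKO share the Egr1KO libraries. Between FosBcKO and WT, Nab2 differed by 0.07 at 0 h (95% interval -0.39 to 0.54) and -0.29 at 6 h (interval -1.03 to 0.44), with overlapping libraries at both times.

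Single libraries decided the call at 6 h. Without the Egr1KO replicate 1 library Nab2 was called against WT (-2.25, edgeR exact test, FDR 0.0134) and against FosBcKO (-1.93, edgeR exact test, FDR 0.000309). Without the WT replicate 3 library it was called against WT as well (-2.10, edgeR exact test, FDR 0.00981). Over the single libraries left out, its FDR against WT reached 0.614 (edgeR exact test). With all libraries, that FDR was 0.550 by the edgeR quasi-likelihood F-test and 0.689 by the same test with a replicate block. Each of these 2 fits called 0 of the 15618 genes tested. At 0 h Nab2 was called against FosBcKO without the FosBcKO replicate 1 library (-1.13, edgeR exact test, FDR 0.0111).

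Taken over both times in a fit of all 18 libraries, Nab2 was lower in Egr1KO by 1.30 on the log2 scale against WT (SE 0.29, edgeR quasi-likelihood F-test, FDR 0.159). DESeq2 called this difference (FDR 0.00436). Against FosBcKO it was lower by 1.16 (SE 0.29, edgeR quasi-likelihood F-test, FDR 0.0768), which DESeq2 called as well (FDR 0.00558). Without the Egr1KO replicate 1 library at 6 h Nab2 was called lower against both, by 1.56 and by 1.41 (edgeR quasi-likelihood F-test, FDR 0.0468 and 0.0190). An exact two-sided permutation test within time gave p = 0.005, the smallest it can give, for Nab2 against WT and against FosBcKO. The same test gave p = 0.005 for Egr3, 0.03 for Egr2, 0.05 for Egr1 and 0.66 for Egr4 against WT, and 0.055 for Egr3 against FosBcKO (exact permutation, 15 tests in all with the tests by time, unadjusted). For Egr1 that p was 0.06 to 0.12 in 8 of the runs that left out a single library, and for Egr2 it was 0.055 and 0.06 in 2 of them and 0.06 with CPM scaled by TMM factors (exact permutation).

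Of the 5 genes, none was called by the edgeR exact test in any comparison between genotypes. Against WT, 3 of the 4 genes tested in Egr1KO at 0 h and 2 of 5 at 6 h had an unadjusted p under 0.05, and in FosBcKO 0 of 4 and 1 of 5. The edgeR quasi-likelihood F-test and DESeq2 called 0 of them in these comparisons. Over all genes tested, 6.40% and 9.67% had such a p in Egr1KO at 0 h and 6 h and 5.62% and 16.5% in FosBcKO, while 0.410% and 0.736% were called in Egr1KO and 0.295% and 5.41% in FosBcKO. In Egr1KO against FosBcKO, 2 of 4 genes at 0 h and 1 of 5 at 6 h had an unadjusted p under 0.05, as had 8.24% and 9.75% of all genes, while 0.960% and 2.50% were called, and DESeq2 called Nab2 at 6 h (FDR 0.0469). Over both times, 4 and 2 of the 5 genes had an unadjusted p under 0.05 against WT and FosBcKO, as had 11.1% and 13.8% of all genes, and 0.0687% and 0.418% were called. Egr3 and Nab2 were below WT in every Egr1KO library at both times, as 1.61% of the 13892 genes tested at both times were, and Nab2 was below FosBcKO likewise, as 3.29% of 13839 genes were.

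**Figure D3:**
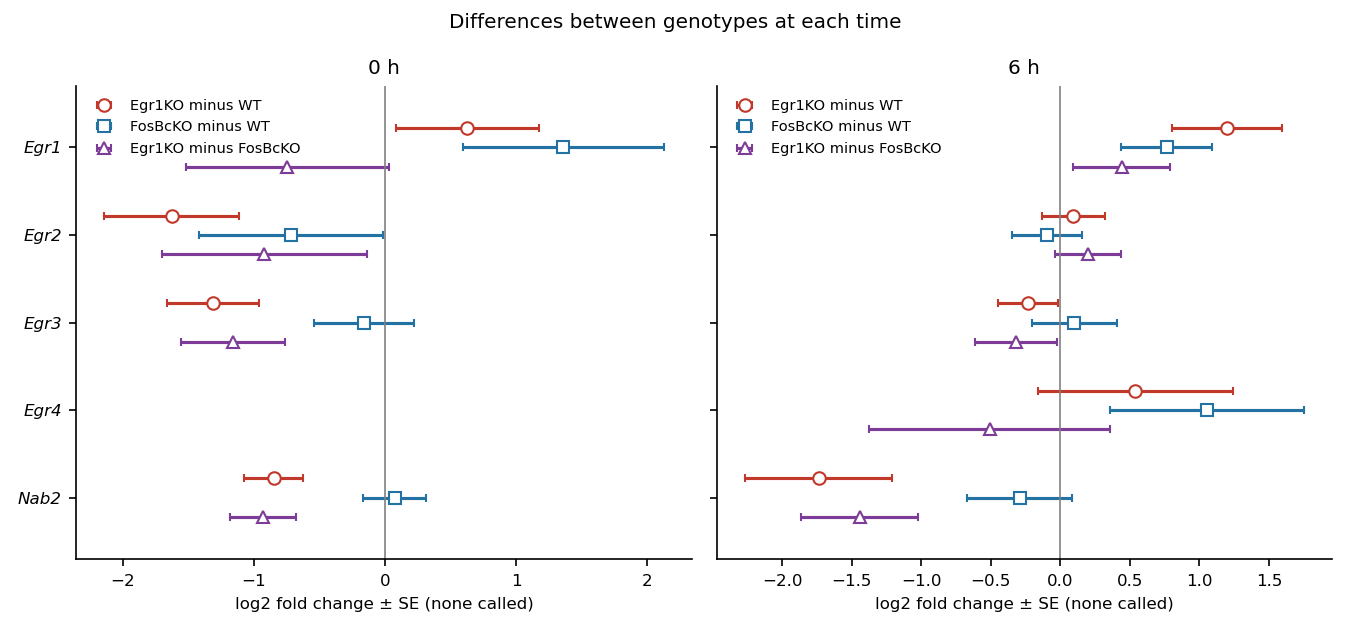
Differences between genotypes at 0 h and at 6 h for each gene, as log2 fold change with its SE, with circles for Egr1KO minus WT, squares for FosBcKO minus WT and triangles for Egr1KO minus FosBcKO. No value was called by the edgeR exact test, and both contrasts of Nab2 in Egr1KO lie between -0.85 and -1.74.

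Set against Egr1, Nab2 had 109 to 244 counts per 1000 Egr1 counts in WT at 0 h and 14.1 to 32.6 at 6 h. In Egr1KO the ratio was 36.7 to 105.5 at 0 h and 2.49 to 3.77 at 6 h, and in FosBcKO it was 40.5 to 177 and 10.4 to 13.4. The genotypes overlapped at 0 h in part, and at 6 h the 3 ranges were separate, with Egr1KO lowest. FosBcKO and WT were barely apart, at 13.4 in FosBcKO replicate 2 and 14.1 in WT replicate 3. Egr1 itself was above WT in every knockout library at 6 h, while Nab2 overlapped between FosBcKO and WT. The ratio is therefore no separate result on Nab2.

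Markers of other cells moved with Nab2 in part. The 2 corneal epithelial markers, Krt12 and Krt5, summed to 97.1, 189.5 and 2.48 CPM in the WT libraries at 6 h, where Nab2 was high in the same libraries 1 and 2. They summed to 6.04, 1.01 and 0.753 CPM in Egr1KO and to 134.9, 0.518 and 299 CPM in FosBcKO at 6 h. The FosBcKO replicate 2 library, with corneal markers at 0.518 CPM, held Nab2 at 30.8 CPM, above the highest Egr1KO library. At 0 h the corneal markers summed to 4.62 to 28.9 CPM in WT, 1.15 to 5.30 CPM in Egr1KO and 0.518 to 3.39 CPM in FosBcKO. The 4 vessel markers summed at 6 h to 55.6, 48.9 and 120.6 CPM in WT. They summed to 10.8, 30.2 and 28.3 CPM in Egr1KO and to 97.9, 33.1 and 31.2 CPM in FosBcKO at 6 h. The Egr1KO libraries were lowest, as for Nab2, but within each genotype the 6 h libraries with more vessel RNA held less Nab2. At 0 h the vessel markers summed to 3.11 to 7.49 CPM in WT, 4.06 to 5.47 CPM in Egr1KO and 9.43 to 15.4 CPM in FosBcKO. Their part in the Nab2 level was not tested.

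Nab1, the other NAB co-repressor, was at group means of 48.8 to 61.8 CPM. Its difference between 6 h and 0 h was 0.0053 in WT (SE 0.19), -0.037 in Egr1KO (SE 0.19) and 0.12 in FosBcKO (SE 0.17, edgeR quasi-likelihood F-test, FDR 0.987, 0.904 and 0.643). Between Egr1KO and WT it was -0.12 at 0 h and -0.14 at 6 h (edgeR exact test, FDR 1 and 0.945). Stat6, a cytokine-responsive transcription factor gene whose end overlaps that of Nab2 by 70 bases in RefSeq, was at means of 5.72 to 10.7 CPM. It differed between Egr1KO and WT by -0.012 at 0 h and 0.14 at 6 h (SE 0.31 and 0.44, edgeR exact test, FDR 1 and 0.978). The genes that encode the other NAB partners listed, Chd3, Chd4 and Ddx20, could not be matched to an ID and are not analysed here.

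**Figure D4:**
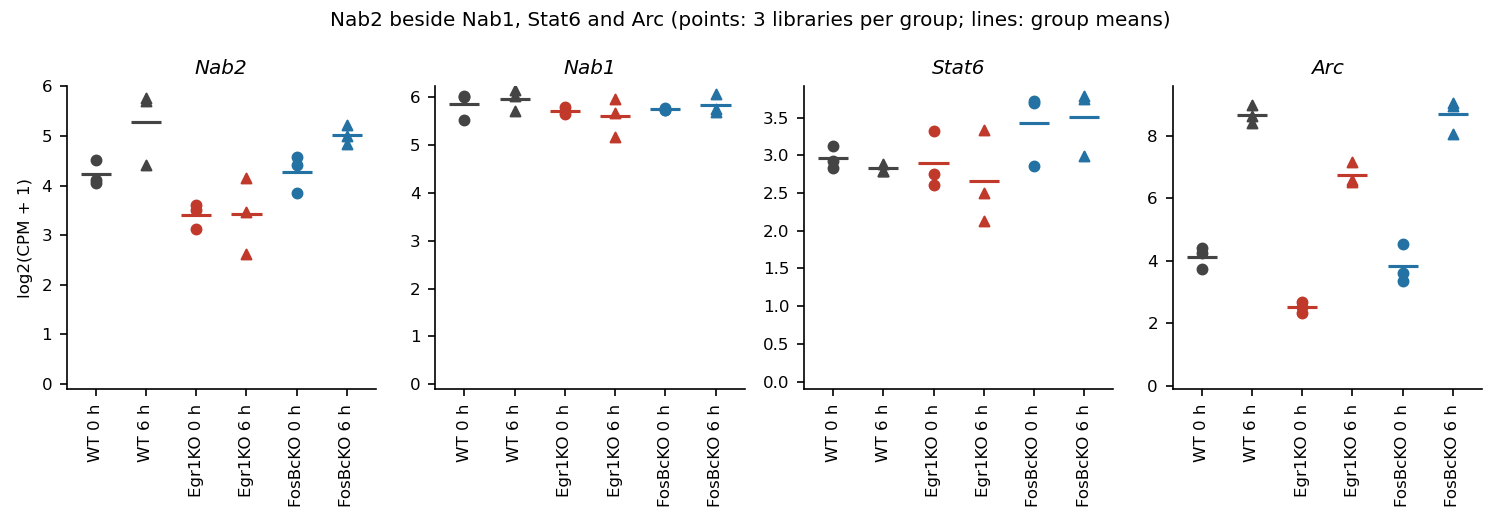
Level of Nab2, of its relative Nab1, of the overlapping gene Stat6 and of Arc, as log2(CPM + 1), with 3 points per group and a line at their mean. Nab2 and Arc are lowest in the Egr1KO libraries at each time, while Nab1 group means lie between 48.8 and 61.8 CPM.

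Of 12 genes known from other systems as EGR1 targets, 7 were called higher at 6 h in WT, 7 in Egr1KO and 6 in FosBcKO. None was called lower, and 3, 1 and 2 of the 12 had a negative difference. Over all genes tested, 13.5%, 9.28% and 11.2% were called higher at 6 h in these genotypes. The median log2 fold change of the list was 1.76, 2.16 and 2.52, against -0.022, 0.0030 and 0.048 over all genes tested. Those that rose in WT include Arc, a synaptic and cytoskeletal immediate early gene (log2 fold change 4.51, SE 0.28, FDR 0.000628), F3, which encodes tissue factor (4.30, SE 0.43, FDR 0.00137), and Icam1, a leukocyte adhesion molecule (2.30, SE 0.26, FDR 0.00151), all by the edgeR quasi-likelihood F-test. Pdgfa, Tgfb1, Fn1 and Cd44 were not called in WT, with values from -0.68 to 0.060, nor was Pdgfb at 0.69.

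Between Egr1KO and WT the only gene of these called was Arc. It was at 12.5, 17.96 and 20.5 CPM in WT at 0 h and at 4.08, 4.79 and 5.47 CPM in Egr1KO, in ascending order. At 6 h it was at 340.9, 394.9 and 506.8 CPM in WT and at 91.6, 94.2 and 142 CPM in Egr1KO, so no libraries overlapped at either time. Arc was lower by 1.81 on the log2 scale at 0 h (SE 0.27, edgeR exact test, FDR 6.92e-05) and by 1.71 at 6 h (SE 0.29, edgeR exact test, FDR 0.000317). It was lower than in FosBcKO too, by 1.58 at 0 h (SE 0.35, edgeR exact test, FDR 0.00366) and by 1.88 at 6 h (SE 0.32, edgeR exact test, FDR 1.91e-05). Yet Arc rose between 0 h and 6 h in Egr1KO by 4.58 (SE 0.26, edgeR quasi-likelihood F-test, FDR 0.000170), and the difference of its rise from that of WT was 0.05 (SE 0.48, edgeR quasi-likelihood F-test, FDR 0.989). Icam1 was higher in FosBcKO than in WT at 6 h by 2.00 (SE 0.47, edgeR exact test, FDR 0.00166). The median of the list was -0.50 at 0 h and 0.029 at 6 h for Egr1KO against WT, beside 0.0053 and 0.032 over all genes tested.

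The 20 other immediate early transcription factor genes responded alongside the Egr genes. At 6 h, 19 of 20 were DEGs in WT, 17 in Egr1KO and 18 in FosBcKO, all higher, with median log2 fold changes of 2.49, 2.96 and 2.49. Over all genes tested, 13.5%, 9.28% and 11.2% were called higher in these genotypes. Fosb rose most in WT, by 6.21 (SE 0.66), followed by Klf2 by 4.09 (SE 0.39) and Fos by 3.99 (SE 0.57, edgeR quasi-likelihood F-test, FDR 0.00151, 0.00121 and 0.00315). The rise of Egr1 in WT, 3.69, lay below these and above the other 17. Fosl2 was not called in WT (0.69, SE 0.34, edgeR quasi-likelihood F-test, FDR 0.167).

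Between genotypes, 0 to 3 of these genes were called in each comparison. In Egr1KO at 0 h, 2 of the 19 tested were lower than in WT, the AP-1 subunit gene Fosl1 (-1.26, SE 0.24, edgeR exact test, FDR 0.00419) and Ier5, a regulator of heat shock factor signalling (-1.15, SE 0.23, edgeR exact test, FDR 0.0237). At 6 h 0 of 20 were called in Egr1KO, with 4 at an unadjusted p under 0.05 by the edgeR exact test. In FosBcKO at 6 h Junb was higher than in WT (1.18, SE 0.32, edgeR exact test, FDR 0.0100). Against FosBcKO, 3 of the 19 tested were lower in Egr1KO at 0 h, Ier5 (-1.08, SE 0.23) and the orphan nuclear receptor genes Nr4a1 (-1.80, SE 0.48) and Nr4a3 (-1.11, SE 0.30, edgeR exact test, FDR 0.00317, 0.0150 and 0.0459). At 6 h 1 of 20 was lower, their relative Nr4a2 (-1.74, SE 0.44, edgeR exact test, FDR 0.0238). Over both times Nr4a1 and Nr4a2 were lower in Egr1KO than in FosBcKO (-1.54 and -2.25, SE 0.29 and 0.48, edgeR quasi-likelihood F-test, FDR 0.0233 and 0.0338), and 0 of 20 were called against WT, with 3 at an unadjusted p under 0.05. In both interactions 0 of 20 were called, and 0 of 20 had an unadjusted p under 0.05 (edgeR quasi-likelihood F-test).

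**Figure D5:**
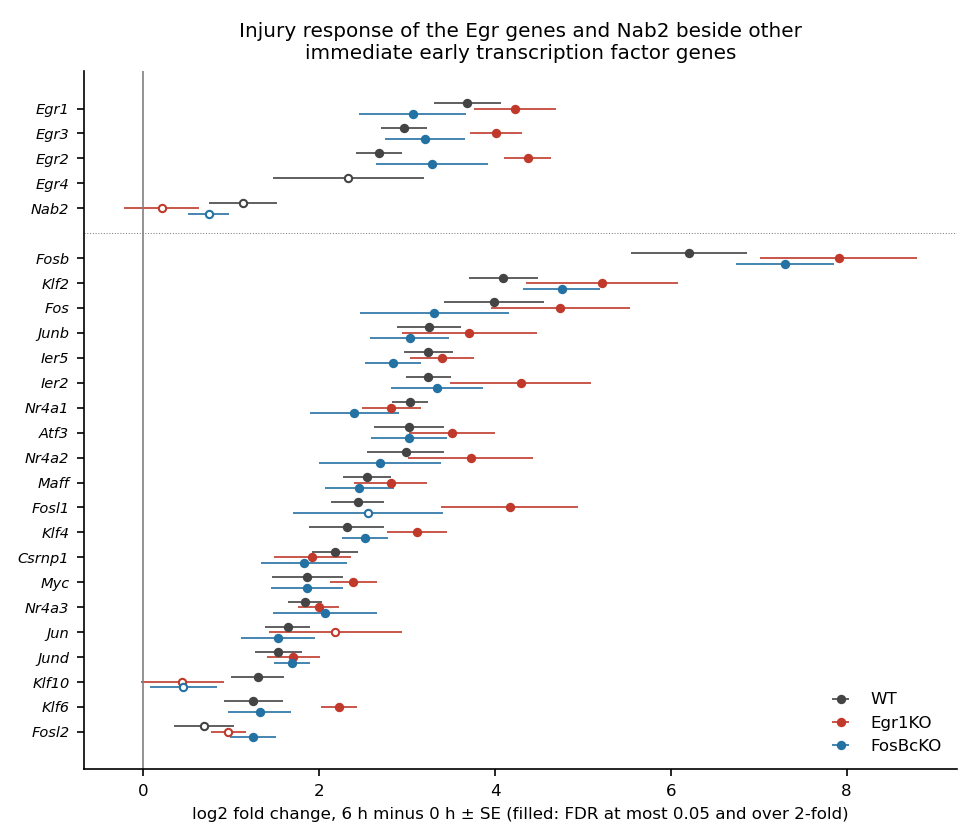
Difference between 6 h and 0 h in each genotype for the Egr genes and Nab2, above the dotted line, and for 20 other immediate early transcription factor genes, ordered by their value in WT, as log2 fold change with its SE. Fosb has the largest value in each genotype, and Nab2 lies left of nearly all others.

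ERK feedback genes encode phosphatases and adaptors that dampen the kinase upstream of the Egr genes. Of 7 such genes, 6 were called higher at 6 h in WT, 4 in Egr1KO and 4 in FosBcKO. Over all genes tested, 13.5%, 9.28% and 11.2% were called higher at 6 h. The 7 are those of 9 listed with a symbol at hand, and symbols were kept in part by how strongly genes changed. Dusp5, a nuclear ERK phosphatase, rose by 3.397 in WT (SE 0.32), 4.27 in Egr1KO (SE 0.46) and 3.73 in FosBcKO (SE 0.56, edgeR quasi-likelihood F-test, FDR 0.00116, 0.00237 and 0.00901). At 0 h Dusp5 was lower in Egr1KO than in WT by 1.82 (SE 0.30, edgeR exact test, FDR 1.20e-05), as 10.6, 10.8 and 23.9 CPM against 51.7, 53.0 and 56.2 CPM. At 6 h the difference was -0.91 (SE 0.43, edgeR exact test, FDR 0.467). Dusp6, a cytoplasmic ERK phosphatase, was higher in FosBcKO than in WT at 6 h by 1.30 (SE 0.20, edgeR exact test, FDR 2.23e-05). Of the transcription factors that act on Egr promoters, Srf, Elk3 and Elk4 could be matched. Srf rose by 1.67 in WT, 1.89 in Egr1KO and 1.77 in FosBcKO (SE 0.17, 0.25 and 0.29, edgeR quasi-likelihood F-test, FDR 0.00127, 0.00383 and 0.00656), while Elk3 and Elk4 were not called in any genotype. Elk3 was higher in FosBcKO than in WT at 6 h by 1.22 (SE 0.32, edgeR exact test, FDR 0.0215).

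Likeness of pattern was measured as the root mean square difference between profiles of log2(CPM + 1) over the 18 libraries, each centred on its mean, among 6333 genes with a symbol at hand. The symbols were kept in part by how strongly genes changed, and all profiles share the libraries and their depth. Egr1 was most like Atf3 (0.472), Ier2 (0.491) and Zfp36 (0.500), against a median of 1.95 over the candidates. Egr2 was most like Sox9 (0.405), Itpkc (0.466) and Lmna (0.468), and its difference from Egr3 was 0.434. Egr3 was most like the metallothionein genes Mt1 (0.390) and Mt2 (0.443) and like Sox9 (0.471). The candidates' median was 1.48 for Egr2 and 1.63 for Egr3. Egr4 was most like C430019N01Rik (0.308), Vcl (0.325) and Tnip1 (0.352), with a median of 0.901. Nab2 was most like E2f8 (0.457), Tlnrd1 (0.544) and Kctd11 (0.554), with a median of 0.946, and lay farther from every Egr gene, at 1.08 to 1.92. E2f8, a repressor of cell cycle genes, had means of 1.58 and 4.604 CPM in WT at 0 h and 6 h and of 0.738 and 1.30 CPM in Egr1KO.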

How the data were processed

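RNA of lens capsules was measured by RNA sequencing in 18 libraries, 3 for each of WT, Egr1KO and FosBcKO at 0 h and 6 h, grouped by the sample labels. Stranded libraries were sequenced in pairs after ribodepletion, and the authors aligned the pairs with HISAT2 and assigned them to genes with HTSeq (union mode). Values are deposited as counts per Ensembl gene without normalization. The methods name the GRCm38 assembly and the labels GRCm39, so no coordinates are given. The strand setting of the counting was not given in the sources used here, union mode leaves out pairs that overlap more than 1 gene, and PCR copies are counted separately. Of 55416 gene IDs, 20214 had no count in any library. Lines of HTSeq that name no gene were left out.

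The 5 genes and all gene lists were chosen with earlier results of these data known. Symbols of other genes came from ID and symbol pairs in the study's shortened tables, which give 6395 symbols and were kept in part by how strongly genes changed. Of the listed genes, 20 of 20 immediate early transcription factors, 12 of 12 EGR1 targets, 7 of 9 ERK feedback genes, 3 of 11 ERK and SRF genes and 1 of 4 NAB genes were matched, and 6 of 9 lens epithelial, 10 of 15 leukocyte, 4 of 5 pigmented, 4 of 4 vessel and 2 of 2 corneal markers. Another gene planned for the list of EGR1 targets is not reported here. Genes were named by these lists, and for each member the 3 most alike were named. RefSeq names and overlaps are from GRCm38.p6. The sequences of these genes were not used here.

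Tests used edgeR 4.0.16 in R 4.3.3 with filterByExpr, TMM scaling and robust dispersions, each over all genes that passed the filter. Times were compared by the quasi-likelihood F-test and genotypes by the exact test, on the 6 libraries compared. Interactions and differences over both times used the quasi-likelihood F-test on 18 libraries. Standard errors of fold changes, also beside exact tests, were derived from the F statistic of the quasi-likelihood test. Their 95% intervals use a normal multiplier of these errors. With so few libraries they are approximate and narrower than intervals drawn from that test itself. The permutation tests enumerated all arrangements of libraries within genotype or time, without regard to replicate numbers. CPM are counts divided by a library's gene counts, times 1000000. The tests were checked on simulated data. Libraries pool 5 capsules, and p-values measure the spread between pools. Same-numbered WT libraries at 0 h and 6 h deviated together from their group means (correlations 0.102 to 0.247, all 3 above 0.1), so a replicate block was used beside WT results where it changed a call. Alternatives were the other edgeR test, DESeq2 1.42.0, RLE scaling, other filters, no fold minimum, dispersions without the robust option, a fit of all libraries, scaling without the 10 most abundant genes, a pseudocount of 0.25, a replicate block and leaving out each library.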

Additional observations from a re-analysis of the deposited data

How the results depend on the processing

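Of 1280 values of the 5 genes under the alternatives, 1206 kept their direction and their side of the limits, 27 gained a call, 21 lost it and 26 changed sign. In WT at 6 h against 0 h, 3 of the 5 genes were called, and 5 were called by DESeq2 and by the exact test. For Egr1KO against FosBcKO at 6 h, DESeq2 called 1 gene in place of 0. For Egr1KO against WT and against FosBcKO over both times, DESeq2 and the fit with no filter each called 1 in place of 0. In each of these comparisons between genotypes the gene was Nab2. A replicate block changed 1 of 60 calls, that of Nab2 in WT (FDR 0.0213, edgeR quasi-likelihood F-test). In the check of pairing of 6 h with 0 h, same-numbered libraries correlated at 0.078 to 0.181 in FosBcKO and 0.020 to 0.146 in Egr1KO. In FosBcKO these lay above every pair of unlike number, as in WT. By Spearman correlation, 2 of the 15 genes named by likeness were named again. The cause of these changes was not tested.

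Leaving out single libraries gave 0 to 1 genes called for Egr1KO against WT at 0 h and at 6 h, for FosBcKO against WT at 6 h, for Egr1KO against FosBcKO at 6 h, and for both contrasts over both times, and 0 to 2 for Egr1KO against FosBcKO at 0 h. The permutation test of Egr1KO against WT gave 2 to 4 genes at p of at most 0.05, and that against FosBcKO 1 to 2. Values that changed sign were Nab2 at 6 h against 0 h in Egr1KO (-0.33 to 0.57 over the libraries left out), Egr2 (-0.0069 to 0.25) and Egr4 (-0.33 to 0.98) in Egr1KO against WT at 6 h, Egr3 (-0.55 to 0.15) and Nab2 (-0.11 to 0.28) in FosBcKO against WT at 0 h, and Egr2 (-0.31 to 0.060) and Egr3 (-0.31 to 0.32) at 6 h. Against FosBcKO they were Egr1 at 0 h (-1.16 to 0.050), Egr3 at 6 h (-0.54 to 0.095), and over both times Egr1 (-0.33 to 0.28) and Egr4 (-2.49 to 0.73). In the interaction of FosBcKO with WT, Egr1 ranged from -1.10 to 0.10 and Egr3 from -0.22 to 0.57. In the permutation tests Egr4 ranged from -0.36 to 0.081 against WT, and Egr1 from -0.43 to 0.15 and Egr2 from -0.41 to 0.030 against FosBcKO. None of these was called with all libraries. Egr4 in the knockouts at 6 h against 0 h is not among these values, since it had no test with the filter used. Its 0 to 20 counts in the WT libraries limit the precision of its differences.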
